A study of Mus musculus with 2 samples.

Results

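T cells made up 122 of the 7564 cells that passed the quality filter, which came from the back skin of 2 mice, a control and a miR-205-inducible animal. They were selected on measured counts: a cell had to hold at least 2 unique molecular identifiers (UMIs, each a counted RNA molecule) of Cd3e, Cd3d and Cd3g summed, and fewer than 30 UMIs of the basal keratins Krt5 and Krt14 summed. Each T cell was then placed by its antigen receptor genes into a Trdc class (any Trdc UMI, 62 cells), a Trac class (Trac UMIs and no Trdc UMI, 53 cells) or neither (7 cells). Both mice were labelled C57BL/6, were 53 days old and carried a Krt14-H2b-GFP allele that marks keratinocyte nuclei. In the miR-205-inducible mouse, a pTRE2-miR-205 transgene from FVB founders was driven by Krt14-rtTA, whose promoter is that of a keratinocyte gene; activity of the driver in T cells was not measured here. This mouse received doxycycline from postnatal day 49, for 4 days; the sources used here do not say which transgenes the control carried, and its label says untreated although the extraction protocol has both mice on doxycycline. The littermates were run on the same chip, and sorting on surface proteins and GFP set epidermal, hair follicle and dermal cells at 3:5:2, so the share of any cell type here is a share of sorted cells. The antibodies that the study lists for mice with this allele bind integrin alpha 6, CD34 and Sca1, and the labels describe the cells as epithelial and dermal.

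T cells recognise antigen through a receptor made of an alpha and a beta chain or of a gamma and a delta chain, each bound to the CD3 signalling proteins. Mouse epidermis is known for resident gamma delta T cells, the dendritic epidermal T cells, which sit among keratinocytes and carry an almost invariant receptor. Trdc and Trac encode the constant parts of the delta and alpha chains. Alpha beta T cells of the skin include helper, regulatory and CD8 cells, and are found in dermis as well as epidermis.

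The genes that chose the cells lie partly together. RefSeq starts of Cd3e, Cd3d and Cd3g are on chromosome 9 and that of Cd247, the CD3 zeta chain, is on chromosome 1 (GRCm38.p6). The 300 bases from 250 before to 50 after each start are shown because these 4 genes were detected together in both receptor classes. Capitals mark the letters CAGGTG, an E-box that E proteins can bind, or its reverse complement CACCTG. The windows are chr9:45009562-45009861 (minus strand) for Cd3e, chr9:44981536-44981835 (plus strand) for Cd3d, chr9:44980382-44980681 (minus strand) for Cd3g and chr1:165788431-165788730 (plus strand) for Cd247.
Cd3e: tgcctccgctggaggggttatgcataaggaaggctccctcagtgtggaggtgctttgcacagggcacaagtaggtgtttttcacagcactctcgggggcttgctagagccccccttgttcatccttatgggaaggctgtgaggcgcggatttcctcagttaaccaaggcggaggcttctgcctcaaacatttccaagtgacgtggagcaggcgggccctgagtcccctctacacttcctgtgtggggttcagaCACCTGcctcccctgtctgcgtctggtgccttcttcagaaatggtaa
Cd3d: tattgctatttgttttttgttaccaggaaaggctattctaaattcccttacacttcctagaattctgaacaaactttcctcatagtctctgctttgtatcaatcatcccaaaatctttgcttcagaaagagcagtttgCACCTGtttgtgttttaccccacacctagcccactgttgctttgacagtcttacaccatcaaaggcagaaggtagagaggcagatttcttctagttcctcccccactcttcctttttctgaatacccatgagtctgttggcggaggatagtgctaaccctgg
Cd3g: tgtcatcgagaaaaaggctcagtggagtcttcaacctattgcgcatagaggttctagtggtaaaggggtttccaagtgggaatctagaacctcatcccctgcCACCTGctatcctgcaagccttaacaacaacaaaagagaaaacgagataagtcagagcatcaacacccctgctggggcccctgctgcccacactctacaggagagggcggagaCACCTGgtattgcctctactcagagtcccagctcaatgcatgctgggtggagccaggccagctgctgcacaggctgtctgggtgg
Cd247: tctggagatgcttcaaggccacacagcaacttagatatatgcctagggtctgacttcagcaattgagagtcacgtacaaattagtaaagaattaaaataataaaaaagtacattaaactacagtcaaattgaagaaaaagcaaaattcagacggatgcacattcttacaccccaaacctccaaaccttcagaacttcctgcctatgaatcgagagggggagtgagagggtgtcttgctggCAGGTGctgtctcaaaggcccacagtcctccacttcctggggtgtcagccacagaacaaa
Each of the 4 windows held the E-box letters, 2 times in Cd3g, against 20.2% of all 32851 RefSeq promoter windows of this length. Fcer1g and Cd8a, a gene of each class, had none in theirs. The ETS core AGGAAG, the RUNX core TGTGGT and the GATA core AGATAA were searched on both strands as well and are held by 35.4%, 16.8% and 11.2% of promoter windows. In the 4 windows, AGGAAG was found 2 times each in Cd3e, Cd3d and Cd247, AGATAA 1 time in Cd3g, and TGTGGT in none. The E-box was picked for display after these counts were seen, and a match is a description of the letters only. The other sequence of interest is the mature miRNA of the transgene, miR-205-5p, from chr1:193507503-193507524 (minus strand, GRCm38.p6), with its seed (bases 2 to 8) in capitals.
mmu-miR-205-5p: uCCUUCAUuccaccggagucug

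The control library gave 39 T cells of 3936 kept cells, 0.991% (95% exact Clopper-Pearson interval 0.706 to 1.35). The induced library gave 83 of 3628, 2.29% (1.83 to 2.83). Cells of the Trdc class were 31 in each library, 0.788% (0.536 to 1.12) of control and 0.855% (0.581 to 1.21) of induced kept cells, and these intervals overlap almost wholly. The Trac class held 7 control cells, 0.178% (0.0715 to 0.366), and 46 induced cells, 1.27% (0.930 to 1.69), and these intervals do not overlap. Among T cells, the Trdc class was therefore 79.5% (63.5 to 90.7) in control and 37.4% (27.0 to 48.7) in induced skin. A single Trac UMI placed 3 of the 7 control Trac class cells, and 2 of the 46 induced ones. Requiring 2 Trac UMIs left 4 control and 44 induced cells, so control values of this class rest on few cells. There was 1 library per group, so no test of the induction could be made. All intervals in the text cover counting error only, not differences between mice or sorts.

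**Figure D1:**
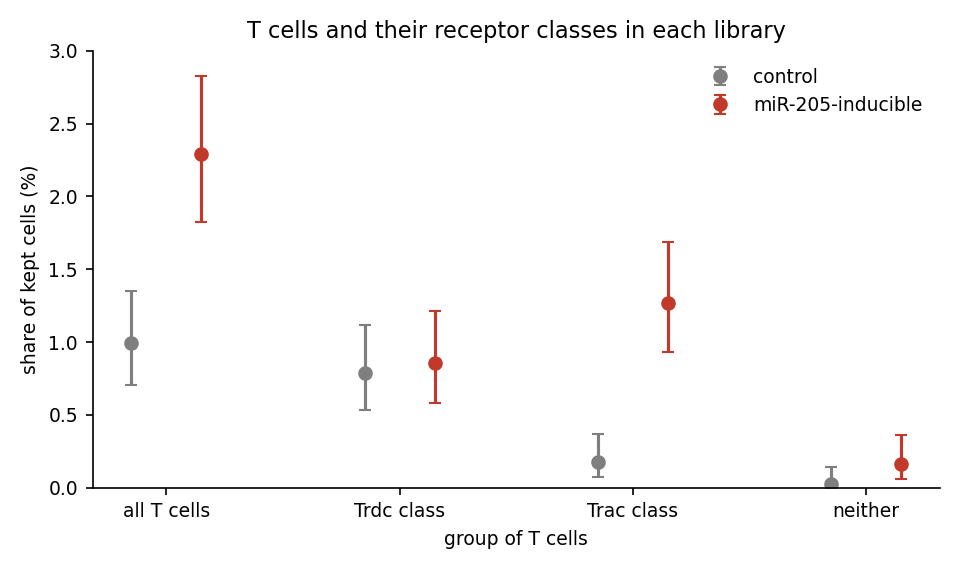
Share of kept cells (%, vertical axis) that were T cells, Trdc class, Trac class or neither, with 1 point per library and bars for the 95% exact interval. The Trdc class has 31 cells in both libraries, while the Trac class has 7 in control (grey) and 46 in the induced library (red).

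T cells gave fewer UMIs per cell than the kept cells as a whole. Their median depth was 4451 UMIs in control and 5083 in induced skin, against 12198.5 and 11752.5 over all kept cells, from libraries of 55465594 and 49733560 UMIs. Median depths of the Trdc class were 4470 and 5136 UMIs and those of the Trac class 4148 and 5077, so depth differed little between the classes. The libraries shared 11 barcodes, none of them a T cell. At the edge of the selection, 9 control and 11 induced cells held 1 CD3 UMI and were left out, while 1 and 3 cells held exactly 2 and were kept. The keratin limit left out 3 control and 5 induced cells with at least 2 CD3 UMIs. Their lowest Krt5 and Krt14 sums were 84 in control and 30, the limit itself, in induced skin, against a highest sum of 5 in a T cell.

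Genes that the selection did not use marked the cells as T cells. The 10 genes of a receptor signalling list (Lck, Zap70, Lat, Lcp2 and others, the kinases and adaptors under the receptor) summed to 4727 and 4827 CPM (UMIs scaled to the same total in each group of cells) in the Trdc class of control and induced skin, and to 4920 and 4475 in the Trac class. Keratin-rich cells, with at least 30 Krt5 and Krt14 UMIs and no CD3 UMI, gave 65.3 and 36.5 CPM for the same list. Antigen-presenting cells gave more, 583.7 and 575.5 CPM, with UMIs of 5 of the 10 genes in each library. These cells held at least 10 UMIs of H2-Aa, H2-Ab1 and H2-Eb1 summed, fewer than 30 of Krt5 and Krt14, and no CD3 UMI. Of 6 markers of natural killer, innate lymphoid, B and mast cells, namely Ncr1, Eomes, Cd79a, Ms4a1, Cpa3 and Kit, none had a UMI in either class in either library. Keratinocyte genes were low: the list of 9 summed to between 664 and 929 CPM in the classes, against 36390 and 34290 in keratin-rich cells. This list includes Krt5 and Krt14, which chose both kinds of cell, so that contrast was partly fixed in advance and is a description. Of 7 stroma, endothelial and melanocyte markers, Dct and Pmel were at 0 in both classes and the summed level was between 32.4 and 53.6 CPM. In the class contrast described further on, 1 of the 7 tested keratinocyte genes, Dsp, was called higher in the Trdc class, against 13.8% of all genes tested. The part of these low levels in the results was not tested.

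One cell stood apart. A control cell of the Trdc class with 11914 UMIs, 23 of them CD3 and 6 of them Trdc, also held 340 UMIs of Cd74, 141 of Cd207 and 547 of H2-Aa, H2-Ab1 and H2-Eb1, which are genes of Langerhans cells. The antigen-presenting list of 7 summed to 7249 CPM in the control Trdc class and to 77.9 in the induced Trdc class, with 0 in the control Trac class and 107 in the induced one. All 5 of its tested genes were called higher in the Trdc class by edgeR, none of them by DESeq2, and this count rests on that cell: without it the log2 fold change of Cd74 was -0.34. Results are given with and without this cell where it moved them.

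CD3 itself differed in level between the classes. Cd3e, the epsilon chain, had a median of 19 UMIs per cell in the control and 18 in the induced Trdc class, against 3 and 4 in the Trac class. For Cd3g, the gamma chain, the medians were 16 and 22 UMIs against 4 and 4, and for Cd3d, the delta chain of CD3, 4 and 7 against 1 and 3. In CPM, Cd3e was 4179 and 4010 in the Trdc class and 809 and 668 in the Trac class, a pooled ratio of 6.00 (5.18 to 6.98). These 3 genes chose the cells, so their values are a description. Cd247, which was not used, gave 346.5 and 441 CPM in the Trdc class against 324 and 82.1 in the Trac class. Its log2 fold change was 1.65 ± 0.46 (SE, adjusted p = 0.00228 by edgeR with Benjamini-Hochberg adjustment), and 0.04 within the control library alone, and DESeq2 did not call it (adjusted p = 0.413).

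The receptor genes split the cells. Tcrg-C1, a gamma chain constant gene, was found in 30 of 31 control and 29 of 31 induced Trdc class cells, at 1261 and 1362 CPM. It had 3 UMIs in 1 of 7 control Trac class cells and none in the 46 induced ones, which allows up to 6.52% of cells with a UMI (3 counts of the total) and sets no limit on cells expressing the gene below detection. The pooled ratio was 136 (46.2 to 663), and the adjusted p was 5.11e-34 in edgeR and 0.0953 in DESeq2. Tcrg-C2 and Tcrg-C4, which share sequence with it so that reads could be split between them, were also higher in the Trdc class, with log2 fold changes of 2.67 ± 0.71 and 3.76 ± 0.81 in edgeR, and were not called by DESeq2 (adjusted p = 0.382 and 0.166). Trdv4, a delta variable gene, was found in 20 and 26 Trdc class cells and had no UMI in the Trac class, which put it at least 46.5-fold higher if the Trac class is set at 3 UMIs in all. The same bound is used for every gene with no UMI in a class. Trdv4 and Trdc encode parts of the same chain and Trdc chose the classes, so the split of Trdv4 was partly fixed in advance. Tcrg-V5 was found in 4 cells of each library, all of the Trdc class, and Trdv4 or Tcrg-V5 in 21 and 26 of 31. Tcrg-V6 and Tcrg-V4 had 1 UMI each, both in the induced Trdc class.

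Genes of the alpha beta receptor and its helpers ran the other way. Of the list of 9, 7 were tested and 6 were called higher in the Trac class, against 8.15% of all genes tested, with 1 not called. The median log2 fold change was -7.67, or -5.19 with the 4 genes at 0 in the Trdc class set at their bound, against 0.07 over all 3927 genes tested. Cd28, the co-stimulatory receptor, had no UMI in 62 Trdc class cells and was found in 7 of 7 control and 43 of 46 induced Trac class cells, at 971 and 1011 CPM, at least 100-fold higher. Cd6 was found in 6 and 32 Trac class cells and in none of the Trdc class, at least 43.2-fold higher. Cd5 had 1 UMI in the Trdc class and 119 in the Trac class, a pooled ratio of 114 (20.1 to 4550). The beta chain constant genes did not split in this way. Trbc2 was at 485 and 383 CPM in the Trdc class and at 2201 and 1021 in the Trac class, and Trbc1 at 679 and 733 against 194 and 846. Trbc1 or Trbc2 UMIs were present in 28 and 29 of 31 Trdc class cells, and reads of these near-identical genes could be split between them. Trbc2 was also seen in 14.2% and 10.7% of keratin-rich cells, 4.01% and 0.669% after every cell was thinned to 3000 UMIs, against 69.0% and 60.0% of thinned Trdc class cells. Trac UMIs were present in 3 Trdc class cells of each library.

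Across all genes, the class contrast asked which RNAs besides the receptors separate the 2 kinds of T cell within the same skin. UMIs were summed per library and class, giving 4 sums of 144287 and 154132 UMIs for the Trdc class and 30893 and 279997 for the Trac class. They were tested with edgeR's quasi-likelihood test with the mouse as a block, over 3927 genes with at least 20 UMIs, leaving out Trdc and Trac. At an adjusted p of 0.05, 543 genes were higher in the Trdc class (13.8% of those tested) and 320 in the Trac class (8.15%). With 2 mice the fit had 1 residual degree of freedom, and the control Trac sum came from 7 cells. DESeq2 on the same sums called 142 and 68 genes, all 210 of them among the edgeR calls. Of 78 edgeR calls among the listed and named genes, DESeq2 called 35, did not call 38 and gave no adjusted p for 5. Of 852 called genes with a UMI in a control class, 837 had the same direction in both mice. The calls came from these same 2 mice, so this agreement is a description and not a replication. Of the 863 calls, 15 had most of their UMIs in 1 cell.

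**Figure D2:**
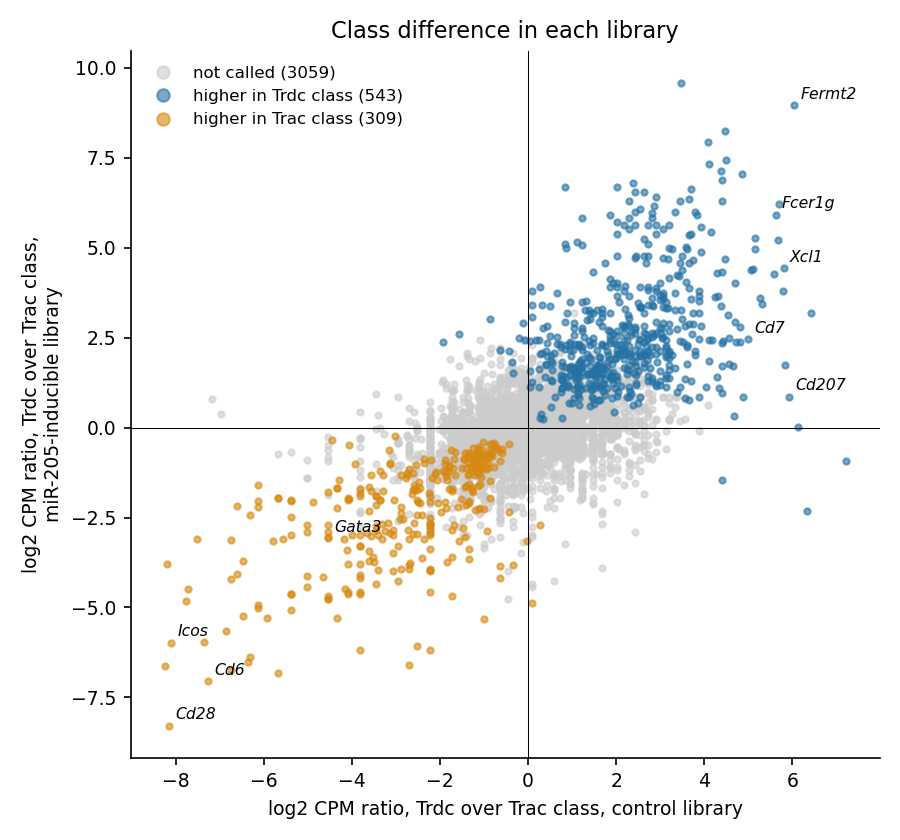
Log2 CPM ratio of the Trdc over the Trac class within the control library (horizontal axis) and within the miR-205-inducible library (vertical axis), 1 point per tested gene with a UMI in a control class. Blue and orange points were called by edgeR and grey ones were not; Fermt2, Fcer1g, Xcl1 and Cd7 lie far up in both mice, Cd28, Icos and Cd6 far down, and Cd207, which had no UMI in either induced class, lies high in control.

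The 12 genes highest in the Trdc class by fold all had no UMI in any of the 53 Trac class cells. Fermt2, which encodes the integrin activator kindlin-2, was found in 30 of 31 control and 27 of 31 induced Trdc class cells, at 1067 and 882 CPM, at least 101-fold higher. Nap1l5 was at 270 and 435 CPM and at least 36.8-fold higher, Zmat4 at 464 and 234 CPM and at least 35.8-fold higher, and Cela1, an elastase-like protease, at 360 and 305 CPM and at least 34.4-fold higher. Cntn1, Avil, Pmp22, Lag3, Rhou, Tnfrsf13b and Fads3 completed the group with Trdv4, with bounds from 12.8-fold (Tnfrsf13b and Fads3) to 29.9-fold (Cntn1). Lag3, an inhibitory receptor that binds MHC class II, was found in 9 and 12 of 31 cells. In DESeq2, 3 of these 12 passed the threshold (Avil, Lag3 and Rhou), and Fermt2 did not (adjusted p = 0.191).

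The 12 genes lowest by fold had no UMI in any Trdc class cell. They were Cd28, Ctla4, Il5, Cd6, Sla, Slamf1, Il1rl1, Ifi27l2a, Cd8a, Cd8b1, Pclaf and Retreg1. Slamf1, a receptor of the SLAM family, was found in 5 of 7 control and 36 of 46 induced Trac class cells, at 356 and 346 CPM, at least 34.6-fold higher. Ctla4, an inhibitory receptor of the CD28 family, was at 1036 CPM in control, with 31 of its 32 UMIs in 1 cell, and at 318 CPM in the induced library, where 19 of 46 cells held it. Il5, a type 2 cytokine, was at 1003 and 42.9 CPM, from 2 control and 4 induced cells, with 28 of the 31 control UMIs in 1 cell. Cd8a, Cd8b1 and Pclaf had no UMI in either control class, so their difference was seen in the induced mouse alone. Cd28, Slamf1, Ifi27l2a and Retreg1 also passed in DESeq2 and the other 8 did not.

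Most genes linked to epidermal gamma delta T cells were higher in the Trdc class. Of the list of 12, 10 were tested, 8 were called higher in the Trdc class, against 13.8% of all genes tested, and none in the Trac class, with a median log2 fold change of 2.22. Fcer1g, the Fc receptor gamma chain that can stand in for CD3 zeta, was found in 30 and 31 of 31 Trdc class cells, at 2384 and 2478 CPM, and in 1 of 7 and 3 of 46 Trac class cells, at 32.4 and 39.3 CPM. Its pooled ratio was 63.0 (35.9 to 123), and the adjusted p was 2.74e-58 in edgeR and 6.17e-19 in DESeq2. Antigen-presenting cells also carry Fcer1g, at 1070 and 1060 CPM, whereas keratin-rich cells held 3.44 and 1.93 CPM. Cd7 was found in every Trdc class cell, with medians of 13 and 12 UMIs, and its pooled ratio was 6.04 (5.01 to 7.32). Xcl1, a chemokine that attracts cross-presenting dendritic cells, was at 901 and 2258 CPM against 0 and 104, a pooled ratio of 17.2 (11.8 to 25.9). Nkg7 and Ctsw, genes of cytotoxic granules, gave pooled ratios of 2.91 (2.47 to 3.45) and 3.57 (2.90 to 4.42). Klrd1, Cd244 and Tyrobp were the other 3 called; Tyrobp lost its call without the Langerhans-marked cell, and DESeq2 called neither Klrd1 (adjusted p = 0.0627) nor Tyrobp (0.471). The natural killer receptor Klrk1 and the integrin Itgae, which binds E-cadherin, were not called, with log2 fold changes of 0.16 ± 0.39 and 0.57 ± 0.42. Klrk1 was at 263 CPM in the Trdc and 550 in the Trac class of control, and at 668 and 400 in those of the induced library.

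**Figure D3:**
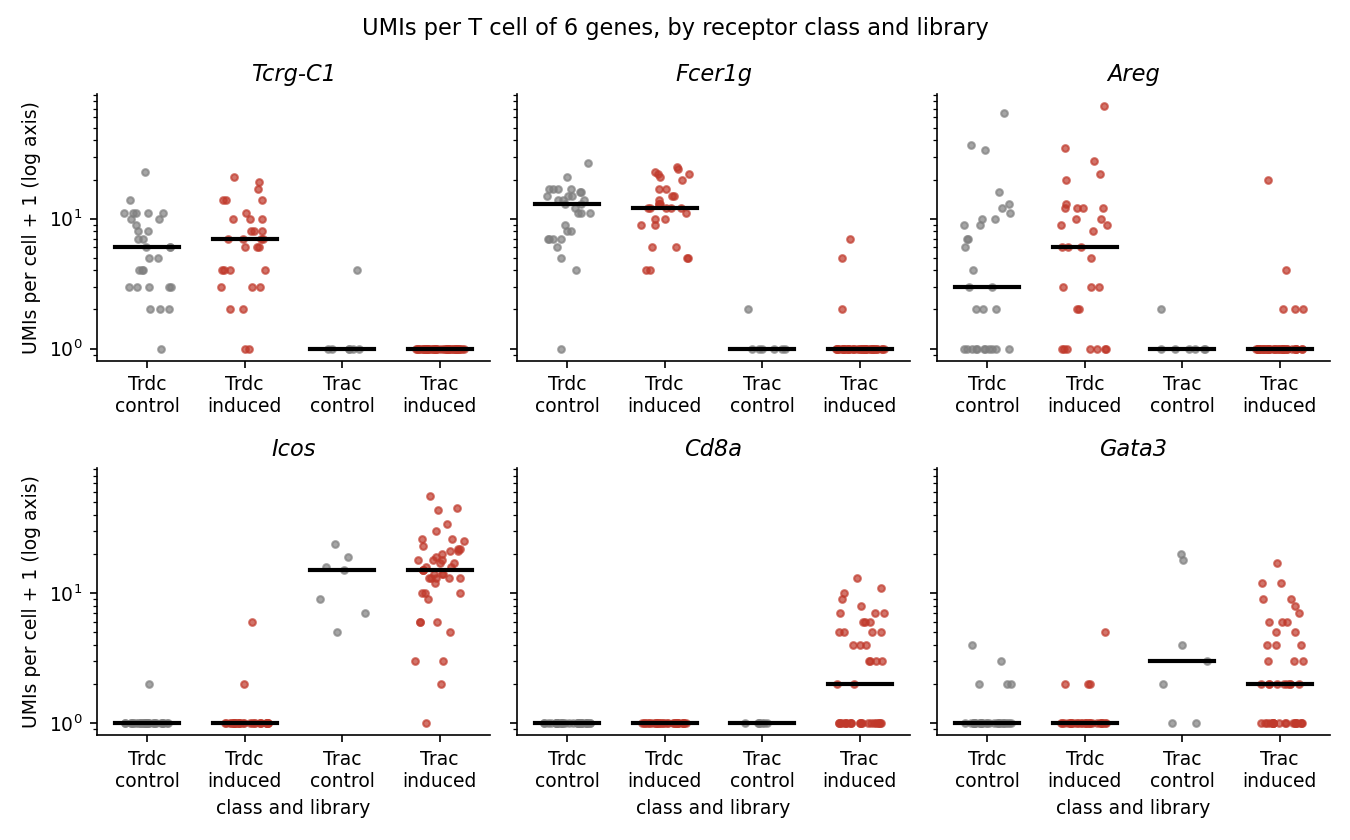
UMIs per cell plus 1 on a log axis for 6 genes, with 1 point per T cell, grouped by receptor class and library, and a black line at the median. Tcrg-C1 and Fcer1g are carried by nearly all Trdc class cells of both libraries, Icos by all control and 45 of 46 induced Trac class cells, and Cd8a by 24 induced Trac class cells alone.

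Interleukin 17 genes were scarce in both classes. Il17a, Il23r, Il1r1, Blk and Sox13 had no UMI in the Trdc or the Trac class of either library. Il17f had 1 control and 2 induced UMIs, all in the Trac class. Of the 4 tested genes of the 13 on the gamma delta 17 list, Cd163l1 was higher in the Trdc class (22 UMIs in 1 control and 5 induced cells, against 3 UMIs; the call was lost without the mouse as a block), and Maf, Cxcr6 and Il7r were higher in the Trac class, against 8.15% of all genes tested. Of these 4, DESeq2 called Il7r alone (adjusted p = 0.0483). Cxcr6, a chemokine receptor of resident T cells, was at 991 and 895 CPM against 2654 and 1479.

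Regulatory and helper genes sat mostly in the Trac class. Of the list of 12, 9 were tested, 6 were higher in the Trac class and 1, Areg, in the Trdc class. Over all genes tested the shares were 8.15% and 13.8%. The median log2 fold change of the list was -6.11, or -4.19 with the 2 genes at 0 set at their bound. Icos, the inducible co-stimulator, was found in 7 of 7 and 45 of 46 Trac class cells, at 2849 and 2654 CPM, and in 1 and 2 of 31 Trdc class cells, at 6.93 and 38.9 CPM. This was a pooled ratio of 114 (55.1 to 284), with an adjusted p of 1.54e-66 in edgeR and 1.22e-15 in DESeq2. Gata3, the regulator of type 2 cells, was 9.98-fold (5.87 to 18.3) higher, at 1360 and 407 CPM against 55.5 and 45.4. Tnfrsf4, Il2ra, Ctla4 and Il1rl1 were the other 4. Areg, an epidermal growth factor receptor ligand, was found in 20 and 24 of 31 Trdc class cells and in 1 of 7 and 5 of 46 Trac class cells, at 1677 and 1933 CPM against 32.4 and 89.3. Its pooled ratio was 21.6 (14.6 to 33.4), with an adjusted p of 2.32e-35 in edgeR and 1.35e-11 in DESeq2. Keratin-rich cells held Areg at 58.4 and 50.8 CPM. The lists that lead here were built around skin T cell types with earlier results of these data known, so their direction is not independent evidence.

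Smaller sets moved in part, and their counts stand against 13.8% of all genes tested called higher in the Trdc class and 8.15% in the Trac class. Of 6 tested cytotoxic genes of 11, Prf1 (perforin; 17 and 16 of 31 Trdc class cells, 236 and 221 CPM against 0 and 14.3) and Gzmc were higher in the Trdc class, Gzmb in the Trac class, and 3 were not called; 148 UMIs of Gzmc came from 7 Trdc class cells, 77 of them from 1 control cell. Gzmb lost its call without the mouse as a block. Of 8 tested residency genes of 13, Rgs1, Il2rb and Ahr were higher in the Trdc class and 5 were not called; Rgs1, a brake on chemokine receptor signalling, gave a pooled ratio of 3.09 (2.82 to 3.40), while Ahr had a log2 ratio of -0.20 within control and lost its call without the block. Among 10 receptor signalling genes, 2 were higher in the Trdc class and 8 were not called, with a median log2 fold change of 0.02. In the immediate early list of 14, Fos, Fosb, Junb and Egr1 were higher in the Trdc class and 10 were not called. Fos was at 1248 and 1311 CPM against 97.1 and 136, a pooled ratio of 9.71 (7.02 to 13.7); such genes also respond to tissue digestion, whose part in this was not tested. The interferon list gave 2 of 5 each way (Isg15 and Bst2 against Ifi27l2a and Ly6a, the last of which encodes Sca1, a protein stained for sorting), and Ccr7 was the 1 of 3 tested naive and circulating genes that was called, higher in the Trac class. Lef1 had 2 UMIs in all.

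The 7 cells with neither receptor gene were closer to the Trac class by the genes above, as a description. Each held 8 to 29 Icos UMIs and none of Fcer1g or Tcrg-C1. Trbc1 or Trbc2 UMIs were present in all 7. Of the 6 induced cells, 1 carried Cd8a and Cd8b1 with 68 Gzmb UMIs, and 3 held 10 to 19 Ctla4 UMIs. The control cell held 2 CD3 UMIs, both of Cd3g, with 17 of Icos, 5 of Gata3 and 4 of Kit.

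The question between the mice was whether keratinocyte miR-205 induction went with different T cells, and it can be answered for this pair of libraries only. Cd8a or Cd8b1 UMIs were found in 24 of 46 induced cells, 52.2% (36.9 to 67.1), and in 0 of 7 control cells, which by the same rule allows up to 42.9% of cells with a UMI. The exact interval of the control share, 0.0 to 41.0, overlaps that of the induced share. Cd8a was present at 407 CPM and Cd8b1 at 336 CPM in the induced Trac class, and 23 of the 24 cells held both. After thinning to 3000 UMIs, Cd8a was in 21 of 42 cells (34.2% to 65.8%). Cd8a was found in 3 of 2497 keratin-rich and 1 of 84 antigen-presenting induced cells, 0.120% and 1.19%. Cd4 was found in 3 of 7 control and 8 of 46 induced cells, and no cell held both Cd4 and a CD8 chain. The remaining 4 control and 14 induced cells had neither, and at these depths a low gene such as Cd4 can be missed.

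Markers of activity were found in part of the induced Trac class cells. Gzmb, granzyme B, was found in 18 of 46 induced and 2 of 7 control cells, at 1089 and 129.5 CPM. Of the 18, 12 had a CD8 chain and 3 had Foxp3. Foxp3, the regulator of regulatory T cells, was found in 4 of 46 and 0 of 7 cells, and all 4 also held Ctla4. Mki67, a protein of dividing cells, was found in 4 of 46 cells with 7 to 21 UMIs each; 3 of them carried a CD8 chain and 1 carried Foxp3, and their depths were 11043 to 16810 UMIs, against a class median of 5077. None of the 4 was among the highest Scrublet doublet scores. The Langerhans-marked cell was not among those scores either, so they cannot tell whether the 4 were doublets. Of the 7 tested cell cycle genes of 8, 5 were called higher in the Trac class (Mki67, Top2a, Mcm5, Stmn1 and Hmgb2), against 8.15% of all genes tested, and 2 were not called. DESeq2 called Hmgb2 alone (adjusted p = 0.00813), with Stmn1 and Top2a not passing and no adjusted p for Mki67 and Mcm5. The UMIs were concentrated in few cells: the list had a median of 6 UMIs per induced Trac class cell and a maximum of 191, and 5 cells held 87.2% of the Stmn1 UMIs. Its summed level was 3764 CPM in the induced Trac class, against 1036 in control and 631 and 688 in the Trdc class. Interferon gamma (Ifng) was found in 9 of 46 and 2 of 7 cells, and 5 or more Gata3 UMIs in 10 of 46 and 2 of 7. For Gzmb, Foxp3, Mki67, Ifng and Gata3 alike, the intervals of the shares of cells overlap between the libraries.

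**Figure D4:**
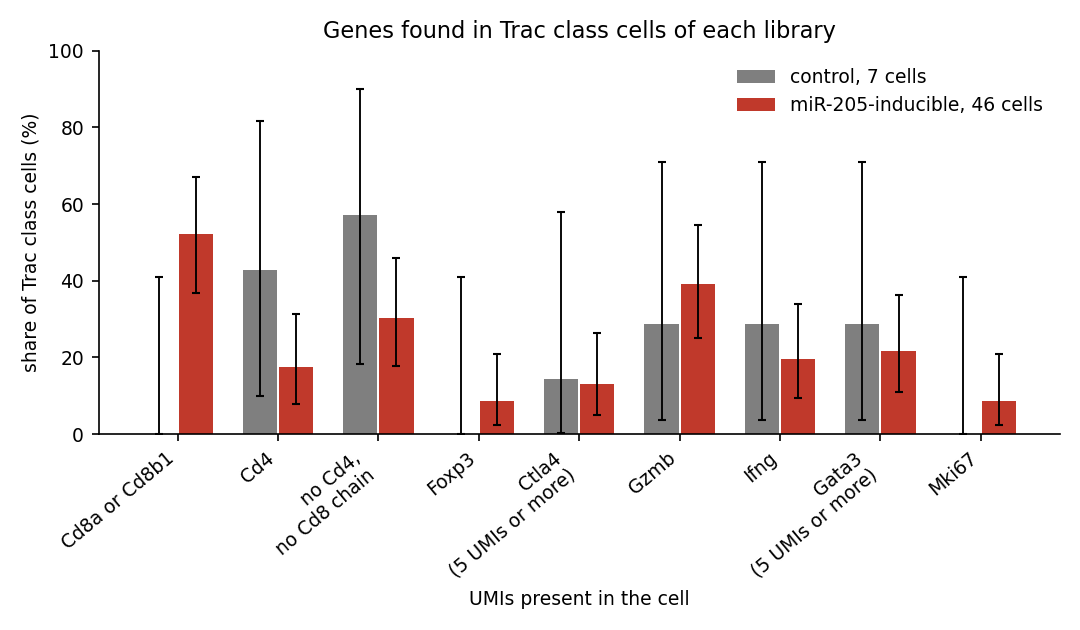
Share of Trac class cells (%, vertical axis, from 0) that hold UMIs of each gene named on the horizontal axis, in control (grey, 7 cells) and miR-205-inducible skin (red, 46 cells), with 95% exact intervals as bars. CD8 chains appear in 24 induced cells and in no control cell, and the control intervals are wide because they rest on 7 cells.

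The Trdc class allowed a closer comparison, with 31 cells in each library and 144287 and 154132 UMIs. Of 984 genes with at least 50 UMIs, 48 had a log2 ratio of induced over control CPM of 1 or more in either direction, 4.88%, with 24 each way and a median of 0.0026. Of the 9 epidermal gamma delta genes with enough UMIs, 2 (Klrk1 and Xcl1) had a log2 ratio of 1 or more, none of -1 or less, and the median was 0.06. Tcrg-C1 gave a log2 ratio of 0.11 (-0.18 to 0.41), Fcer1g 0.06 (-0.16 to 0.27), Cd7 -0.01 (-0.22 to 0.20), Nkg7 -0.01 (-0.26 to 0.24), Rgs1 -0.10 (-0.24 to 0.03) and Areg 0.20 (-0.04 to 0.46). Trdc itself, which chose the cells, was at 4969 and 5787 CPM. Of the genes highest in this class, Trdv4 gave 0.60 (0.09 to 1.14), Zmat4 gave -0.98 (-1.62 to -0.39), and Tnfrsf13b was at 62.4 and 182 CPM. None of the 8 measured receptor signalling genes, the 8 immediate early genes or the 7 residency genes reached a 2-fold difference.

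The counting interval excluded 0 for 197 of the 984 genes, and those with the highest ratios are described here. Xcl1 was at 901 CPM in the control class and 2258 CPM in the induced one, which is 1.32 (1.03 to 1.63) on the log2 scale, and was found in 21 and 27 of 31 cells, with its 5 highest cells holding 60.8% and 63.5% of its UMIs. Klrk1, the activating receptor NKG2D, was at 263 and 668 CPM, 1.33 (0.79 to 1.92), in 20 and 30 cells. Lgals3, which encodes galectin-3, was at 464 and 1713 CPM, 1.88 (1.49 to 2.29), in 25 and 29 cells, and Emb, embigin, was at 333 and 882 CPM, 1.40 (0.92 to 1.91). Cd52, a lymphocyte surface glycoprotein, was at 582 and 1538 CPM, 1.40 (1.04 to 1.78). In antigen-presenting cells of the same libraries Cd52 was at 781 and 1411 CPM and Lgals3 at 771.5 and 1260. In keratin-rich cells Lgals3 was at 1134 and 1186 CPM and Cd52 at 6.50 and 3.42. Ccl5, a T cell chemokine, had 0 and 119 UMIs, but all 119 came from 2 cells. Gm8797, a predicted gene, was at 34.6 and 1006 CPM here and at 22.5 and 558 CPM in keratin-rich cells, and so it differed in those cells too.

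On the low side, the 6 genes with the smallest ratios in the Trdc class were Cd207, H2-Eb1, H2-Ab1, H2-Aa, Cd74 and Gzmc. The first 5 came from the Langerhans-marked control cell. Without that cell, Gzmc (133 and 15 UMIs, from 3 control and 4 induced cells), Efhd2 and Zmat4 were the lowest, at -3.33 (-4.25 to -2.59), -1.53 (-2.18 to -0.93) and -1.09 (-1.72 to -0.49), and 22 of 950 genes were 2-fold or more higher and 17 lower. Efhd2, a calcium-binding regulator of actin, was found in 25 control and 13 induced cells of 31. It was also lower in induced keratin-rich cells, at 144 against 235 CPM. The study names actin regulators as miR-205 targets in skin epithelium, and these were looked at in T cells. Actb was at 2107 and 3225 CPM in the Trdc class, a log2 ratio of 0.61 (0.41 to 0.82), and Actn4 gave 0.25 (-0.54 to 1.08). Between the classes, 1 of the 3 tested of these genes, Actb, was called, higher in the Trac class, against 8.15% of all genes tested. Actn4 and Rock2 were not called.

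**Figure D5:**
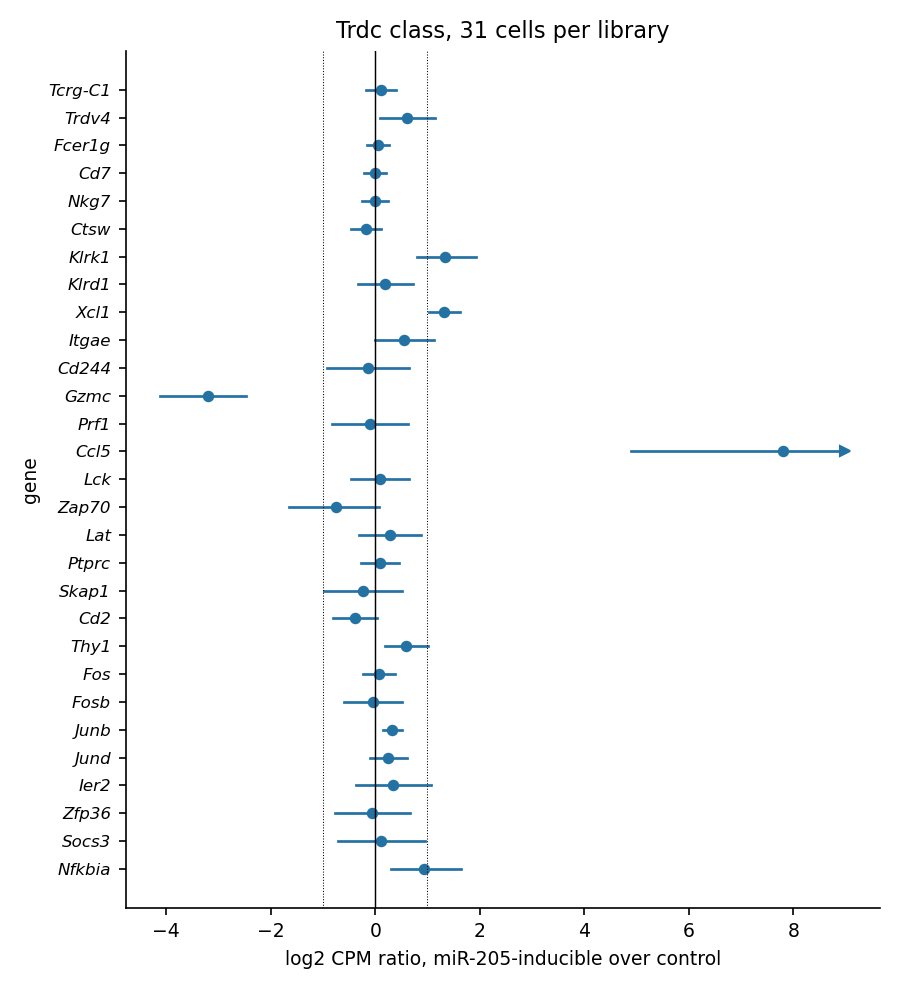
Log2 ratio of CPM, miR-205-inducible over control, in the Trdc class (horizontal axis), for receptor, epidermal gamma delta, cytotoxic, signalling and immediate early genes with at least 50 UMIs, apart from any not reported here; bars are 95% counting intervals, an arrow marks an interval without an upper end, and dotted lines mark 2-fold. Most genes lie within the dotted lines, with Klrk1, Xcl1 and Ccl5 above and Gzmc below.

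Over all T cells together, 291 of 1998 genes (14.6%) reached 2-fold between the libraries, 140 higher and 151 lower in the induced one, and in the Trac class 144 of 933 (15.4%). The pooled cells mix 31 and 31 Trdc class cells with 7 and 46 Trac class cells, so a gene of either class moves with the makeup. The 6 genes with the highest ratios were Cd8a, Cd8b1, Stmn1, Gm8797, Gzmb and Odc1. Cd8a and Cd8b1 had no control UMI and were at least 15.5-fold and 13.1-fold higher. Stmn1, a microtubule regulator of dividing cells, had 1 and 154 UMIs, a log2 ratio of 5.33 (3.41 to 11.23). Gzmb had 4 and 430 UMIs, 5.23 (4.03 to 7.28), and Odc1, the first enzyme of polyamine synthesis, 14 and 343, 3.21 (2.50 to 4.15). Within the Trdc class, Odc1 gave 0.95 (-0.38 to 2.54) and Stmn1 1.49 (-1.43 to 7.53). The 6 lowest were the same as in the Trdc class.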

How the data were processed

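Single-cell 3′ RNA-seq of sorted back skin cells was compared between 1 control and 1 miR-205-inducible mouse. UMIs were counted for each gene in each barcode by the authors using Cell Ranger (3.0.1 per the file headers; mm10 per the submitters' processing notes) and the deposited values are raw counts, whole numbers without normalization. Cells with more than 200 and fewer than 5000 genes and under 10% mitochondrial UMIs were kept, as the study states. T cells and classes were selected as described in the report; the members and the 18 gene lists were chosen with earlier results of these data known. Counts were summed per library and class. The class contrast used edgeR 4.0.16 (TMM, library as block, at least 20 UMIs), with DESeq2 1.42.0 as an alternative, and both steps were tested on simulated data. Genes named were the 12 largest and 12 smallest log2 fold changes among calls of the same direction in both libraries, computed with the pseudocount, so that Cd8a, Cd8b1 and Pclaf entered with no control UMI (without mt-, Rpl, Rps, Hb, Gm and Rik genes), the 6 highest and 6 lowest ratios between mice among genes with at least 100 UMIs (without mt-, Rpl, Rps and Hb genes) and listed genes; the same rule within the Trdc class, and the features counted per cell in the Trac class, were chosen after the values were seen. Induced over control values are log2 ratios of CPM (0.5 UMIs added to each sum) with exact conditional intervals, counted where both sums together held 50 UMIs or more. Pairs of values are given as control then induced. Shares were also computed after thinning each cell to 3000 UMIs, leaving out shallower cells (2 and 1 of the Trdc class, 0 and 4 of the Trac class). Doublets were not removed: Scrublet's automatic threshold marked 4 and 5 barcodes, under 0.5%, so it had not worked, and an alternative left out the 165 and 145 highest scores. RefSeq promoter and miRNA sequences are of GRCm38.p6. P-values of the class contrast rest on 2 mice, which also differ in induction. With the mouse as a block, they measure only how the class difference varied between these 2, with 1 residual degree of freedom and variance estimates shared across genes. Some genes of the lists are not reported here by name.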

Additional observations from a re-analysis of the deposited data

How the results depend on the processing

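Alternatives changed the selection of cells, the scaling, the filter on low counts and the test. With under 5% mitochondrial UMIs the T cell share was 0.391% in control and 1.52% in induced skin, and the Trdc class held 6 and 11 cells, 0.293% (0.108 to 0.637) and 0.596% (0.298 to 1.06) of kept cells. That setting, with fewer cells, called 124 genes higher in the Trdc class and 51 in the Trac class, and between the mice left 82 genes with a log2 ratio of 1 or more and 46 with -1 or less. DESeq2 called 142 and 68 genes in the class contrast, and requiring 2 Trdc or Trac UMIs gave 206 genes higher in the Trac class. Without the library as a replicate block, 514 and 297 genes were called, of which 770 in all were among the 863 calls with it. Both classes come from the same mouse, which is the pairing. Between the mice, a minimum of 20 UMIs gave 452 and 358 genes and the Trdc class alone 24 and 24. The other selections, scalings and filters kept each share within its interval and each count within 1.5 times, except that with at least 3 CD3 UMIs the 1 control cell of neither class was lost. Cd74 reversed to -0.34 without the cell with at least 10 MHC class II UMIs, chosen after seeing the data. With either mouse left out, which leaves a log2 ratio with no test, Cd74 ranged from -0.93 (without control) to 7.21, H2-Ab1 from -2.31 (without control) to 6.33, and Ahr from -0.20 (without the induced mouse) to 2.50. Of the 24 genes named in the class contrast, 17 missed the threshold in DESeq2, and no other setting took a call from those of the 24 that were tested in it, which under 5% mitochondrial UMIs was only part of them. The cause of these differences was not tested. With 7 control Trac class cells, a count of 0 still allows up to 42.9% of such cells to hold a UMI.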
